A study of Rattus norvegicus with 16 samples.

Results

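The proteasome genes of the rat right ventricular wall are described here across 3 groups of arrays labelled RVF+, RVF and CON. Members were all genes whose symbol is Psma, Psmb, Psmc, Psmd, Psme or Psmf followed by a digit, taken from probe sets assigned to a single symbol, with the probe set of the highest mean standing for each gene. This gave 48 of the 17245 genes measured. They comprised 15 subunits of the core particle (7 alpha, 8 beta), 22 regulatory genes (5 ATPases, 14 non-ATPase genes, 3 other activators or inhibitors) and 5 inducible subunits (Psmb8, Psmb9, Psmb10, Psme1 and Psme2). The other 6 matched symbols are not standard subunits (Psma6-ps1, Psmb3l2, Psmb3l3, Psmc3ip, Psme1-ps1 and Psme3ip1). Psma3 and Psmc3 were not among the members, because their probe sets are assigned to a second gene as well; the probe set shared by Psmc3 and Slc39a13 differed by -0.034 in RVF+ and by -0.16 in RVF relative to CON, and those shared by Psma3 and Psma3l by -0.033 and 0.099 in RVF+.

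All animals were male Wistar rats of 160 to 180 g body weight, and whole right ventricular wall was taken. There were 5 RVF+ arrays (numbered 8 to 12), 4 RVF arrays (13 to 16) and 7 CON arrays (1 to 7). The labels state that rats had either a sham operation or a band on the pulmonary artery, which loads the right ventricle with pressure, but give neither the operation nor the time after it for each sample. They do not spell out RVF+ and RVF, although the title of the study concerns right ventricular failure with clinical symptoms. They also do not say that each sample was a separate animal, so the p-values measure the spread between these samples, part of which may be technical.

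Values are the log2 of array intensities, on which a step of 1 is a 2-fold change, and a level is comparable only for the same gene between arrays. Differences are RVF+ minus CON, RVF minus CON or RVF+ minus RVF with their standard error (SE), from 1 limma fit over all 16 arrays. A gene was called when its p, adjusted by Benjamini-Hochberg over all 17245 genes, was under 0.05. The RVF+ and RVF comparisons share the same 7 CON arrays, so they are not independent of each other.

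One array stood apart. Over all genes, RVF+ 8 deviated from the CON means by a root mean square of 0.711 log2 units, against 0.326 to 0.448 for the other RVF+ arrays, 0.358 to 0.417 for RVF and 0.157 to 0.212 for CON. Its 8 macrophage markers averaged 8.77, against 7.17 to 7.78 in the other RVF+ arrays, 6.96 to 7.54 in RVF and 6.39 to 6.87 in CON arrays. Its 8 cardiomyocyte markers averaged 10.98, against 11.65 to 11.76 in the other RVF+ arrays, 11.68 to 11.81 in RVF and 11.95 to 12.01 in CON arrays. Of the 48 members, 20 were highest among the RVF+ arrays in RVF+ 8 and 10 were lowest there, while 18 were highest in RVF+ 12 and 20 were lowest in RVF+ 10. Results are therefore also given without that array.

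The proteasome is the large protease that degrades ubiquitin-tagged proteins. Its core particle is a barrel of alpha and beta rings in which Psmb5, Psmb6 and Psmb7 carry the catalytic sites. The regulatory particle has a lid and a base, and the base holds a ring of ATPases that unfold substrates. Non-ATPase subunits of the lid and base bind and deubiquitinate substrates. Under interferon, Psmb8, Psmb9 and Psmb10 can take the places of Psmb5, Psmb6 and Psmb7 to form the immunoproteasome, and Psme1 and Psme2 together form the activator PA28, which opens the barrel without ATP. In heart muscle the proteasome turns over contractile and damaged proteins.

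Psme1 fell in RVF+ and in RVF ventricles and was the most changed of the proteasome genes, while most core and regulatory genes moved little. Besides it, the catalytic Psmb5, Psmb6 and Psmb7, the alpha subunit Psma1, the ATPase Psmc5 and the non-ATPase subunits Psmd1 and Psmd3 were lower in RVF+ than in CON ventricles. Only the non-ATPase subunit Psmd8 was higher among the members. In all, 1 of 48 members was higher and 9 were lower in RVF+ (20.8% called), where 14.1% of all genes were higher and 13.6% lower (27.7% called). In RVF, 1 member was higher and 5 were lower (12.5% called), where 8.86% of all genes were higher and 8.29% lower (17.1% called). The median difference over the 48 members was -0.088 in RVF+ and -0.084 in RVF, while over all genes it was -0.012 and -0.0087. No set test was made, and these shares are descriptions.

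Without RVF+ 8, 1 member was higher and 8 were lower in RVF+ than in CON, with 12.9% and 12% of all genes called. The fit for RVF against CON without RVF+ 8 called 1 member higher and 7 lower, with 13.4% and 11.2% of all genes, since the estimate of spread common to all groups changes when that array is left out. Psmb5 and Psmb7 were the additional calls in RVF.

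**Figure D1:**
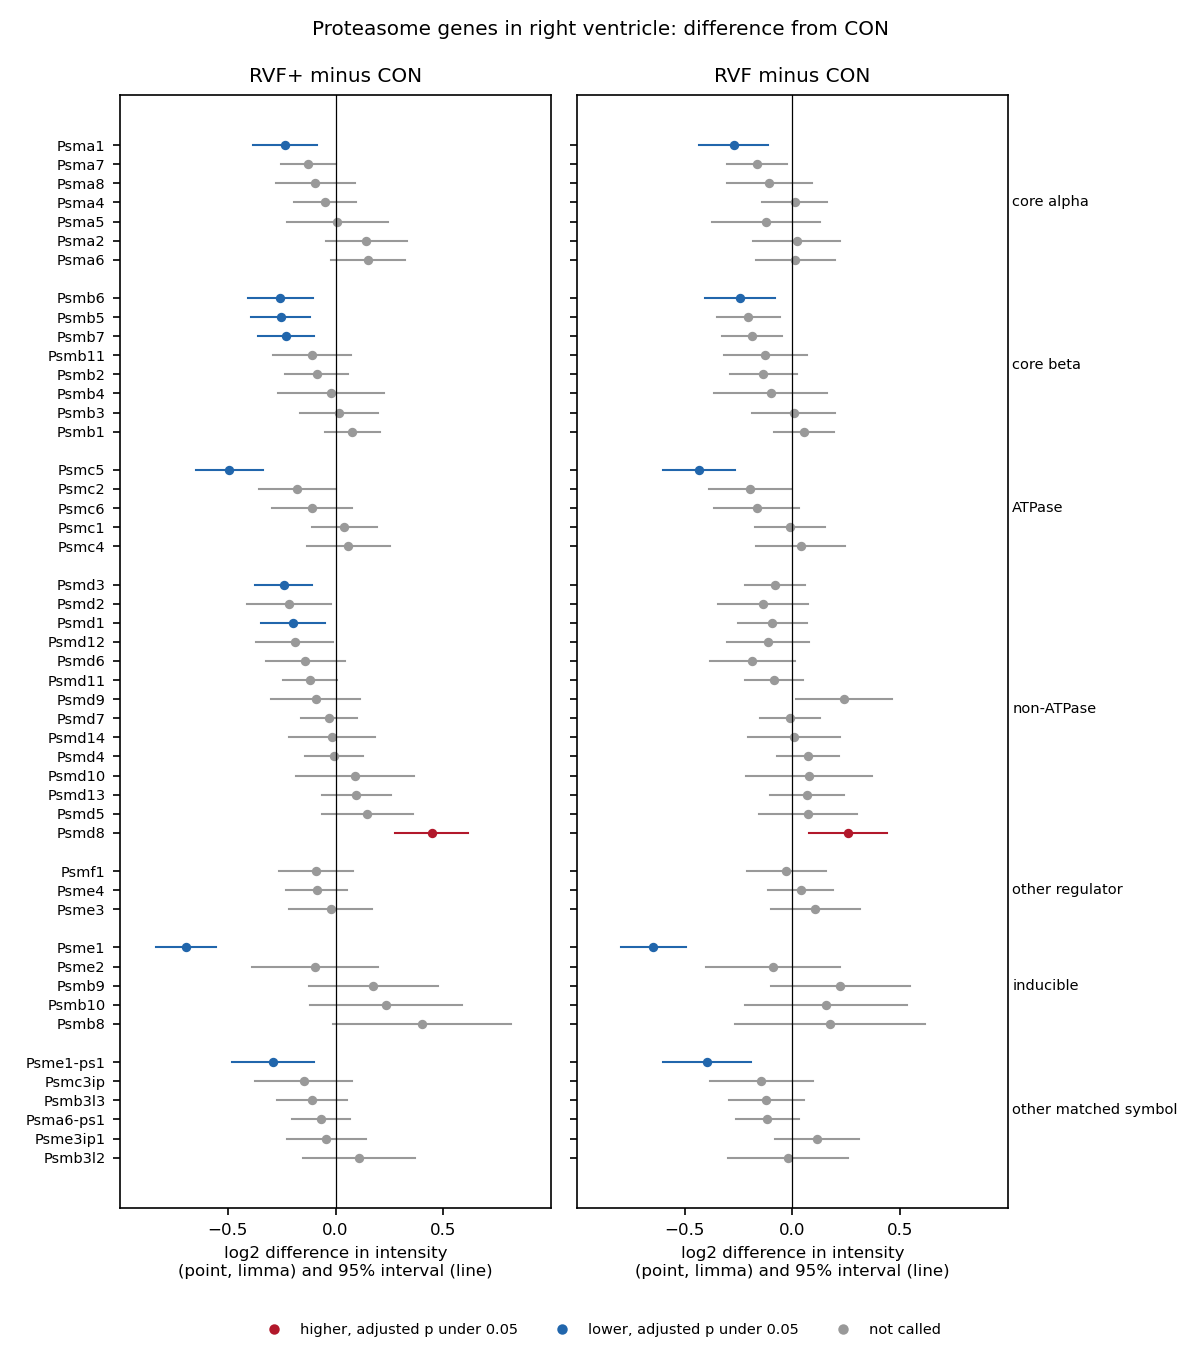
Log2 difference (points) with 95% confidence interval (bars) of each of the 48 members, by class, for RVF+ minus CON and RVF minus CON. Blue marks genes called lower, red genes called higher. Psme1 lies farthest to the left at -0.69 and -0.65 in the first and second panel, Psmd8 farthest to the right at 0.45 and 0.26, and most others lie within 0.25 of 0.

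Psme1, the PA28 alpha subunit, had levels of 9.34, 9.49, 9.27, 9.40 and 9.43 in RVF+ arrays 8 to 12. It had 9.34, 9.43, 9.52 and 9.43 in RVF arrays 13 to 16, while the 7 CON arrays had a lowest value of 9.90, a median of 10.11 and a highest of 10.17. Every RVF+ and every RVF array thus lay below every CON array. The difference was -0.69 ± 0.067 (SE) for RVF+ against CON, or 1.62-fold lower (limma, adjusted p = 2.08e-06), and Psme1 stood at place 55 of 17245 genes by p. It was -0.65 ± 0.071 for RVF against CON, or 1.56-fold lower (adjusted p = 1.00e-05), at place 88. RVF+ and RVF arrays overlapped. The RVF+ difference without RVF+ 8 was -0.68. In whole tissue, fewer cells of a type and less RNA per cell cannot be told apart.

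Psme2, the PA28 beta subunit and partner of Psme1 in the ring, did not pass the test. Its levels were 10.28, 9.61, 9.20, 9.50 and 10.08 in RVF+ and 9.80, 9.62, 9.77 and 9.76 in RVF, with a lowest of 9.67, a median of 9.81 and a highest of 9.97 in CON. The RVF+ arrays thus lay on both sides of the CON range, with 2 above it and 3 below. The differences were -0.095 ± 0.14 for RVF+ (adjusted p = 0.662) and -0.091 ± 0.15 for RVF (adjusted p = 0.732). Without RVF+ 8 the RVF+ difference was -0.23 ± 0.12 (adjusted p = 0.176). A second, dimmer probe set of Psme2 differed by -0.062 in RVF+ and by -0.16 in RVF.

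Psme1 and Psme2 lie close together on rat chromosome 15 with only Emc9 between them, in the RefSeq gene order of build GRCr8. Their promoter windows are shown because these genes encode the partner subunits of one activator, and because interferon-responsive factors are known to act on this family. RefSeq windows of 300 bases, 250 before and 50 after the start, were at hand for 39 of the 48 members. Psme1 is at chr15:33038721-33039020 on the plus strand and Psme2 at chr15:33052702-33053001 on the minus strand, both written 5′ to 3′ along the gene, and capitals mark GAAANNGAA, the core of an interferon-stimulated response element, on either strand.
Psme1: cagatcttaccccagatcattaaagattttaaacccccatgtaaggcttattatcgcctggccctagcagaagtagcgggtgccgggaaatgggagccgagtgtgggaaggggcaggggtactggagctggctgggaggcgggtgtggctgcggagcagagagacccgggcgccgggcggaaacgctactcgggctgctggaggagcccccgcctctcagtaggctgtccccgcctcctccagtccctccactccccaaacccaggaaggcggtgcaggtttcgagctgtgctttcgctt
Psme2: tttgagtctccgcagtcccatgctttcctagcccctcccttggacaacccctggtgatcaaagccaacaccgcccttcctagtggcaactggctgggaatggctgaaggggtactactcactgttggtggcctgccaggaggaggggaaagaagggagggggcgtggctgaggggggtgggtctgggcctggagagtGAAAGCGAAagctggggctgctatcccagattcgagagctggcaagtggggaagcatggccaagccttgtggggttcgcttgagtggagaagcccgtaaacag
The letters GAAANNGAA occur in the Psme2 window at bases 198 to 206 and not in full in the Psme1 window. The Psme1 window ends in ttcgctt, which could begin a match on the opposite strand that the edge cuts off. Full matches to GAAANNGAA occur on either strand in 8 of the 39 member windows (20.5%), against 9.71% of 33469 windows of all genes. They occur in 3 of the inducible members (Psmb8, Psmb10 and Psme2). A form with 1 more A at its end occurs in 6 member windows (15.4%) and in 3.92% of all windows; the shorter form was taken after both had been counted. A match is a description of letters and not a binding site.

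Psmb8, Psmb9 and Psmb10, the catalytic subunits of the immunoproteasome, did not pass the test in either comparison on their own. Psmb8 levels were 6.85, 5.78, 5.32, 5.48 and 5.59 in RVF+ and 5.41, 5.42, 5.69 and 5.79 in RVF, with 5.10, 5.41 and 5.61 as lowest, median and highest in CON. Only RVF+ 8 and RVF+ 9, and RVF 15 and RVF 16, exceeded the highest CON array. The difference was 0.40 ± 0.20 for RVF+ (adjusted p = 0.141) and 0.17 ± 0.21 for RVF (adjusted p = 0.631). Leaving out RVF+ 8 gave 0.14 in RVF+.

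Psmb9 had 8.46, 8.10, 7.61, 7.80 and 8.42 in RVF+ and 8.05, 8.00, 8.27 and 8.19 in RVF, with 7.48, 7.91 and 8.13 as lowest, median and highest in CON. The groups overlapped, at 0.17 ± 0.14 for RVF+ (adjusted p = 0.402) and 0.22 ± 0.15 for RVF (adjusted p = 0.361). The first was 0.079 without RVF+ 8. Psmb10 had 7.55, 6.57, 6.37, 6.30 and 6.54 in RVF+ and 6.60, 6.40, 6.59 and 6.76 in RVF, with 6.12, 6.52 and 6.59 in CON. Among the RVF+ arrays only RVF+ 8 was above the CON range. The differences were 0.23 ± 0.17 (adjusted p = 0.328) and 0.15 ± 0.18 (adjusted p = 0.613), and without RVF+ 8 the first was 0.015. Within the inducible class 1 of 5 members fell (Psme1) and none rose in each comparison, where 13.6% of all genes fell and 14.1% rose in RVF+, and 8.29% fell and 8.86% rose in RVF. The class median was 0.17 in RVF+ (0.015 without RVF+ 8) and 0.15 in RVF.

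**Figure D2:**
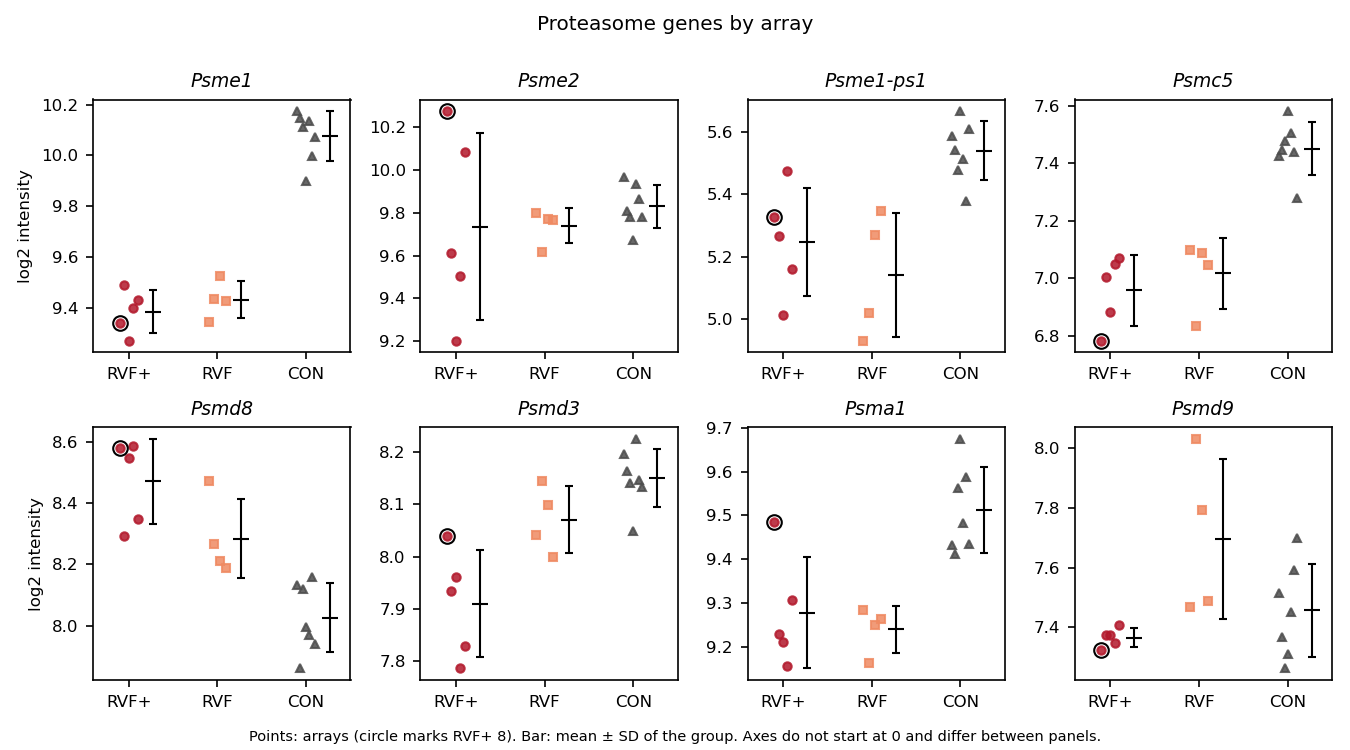
Log2 intensity of 8 members by array, with RVF+, RVF and CON from left to right; points are arrays, a circle marks RVF+ 8, and bars are the mean ± SD of a group. All RVF+ and RVF points of Psme1 and Psmc5 lie below all CON points and those of Psmd8 above them, while the RVF+ points of Psme2 lie from 9.20 to 10.28, on both sides of CON.

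Psmb5, the chymotrypsin-like subunit whose place Psmb8 takes, had 8.69, 8.95, 8.87, 8.83 and 8.97 in RVF+ and 8.91, 8.96, 8.87 and 8.91 in RVF. The CON arrays had a lowest of 9.00, a median of 9.12 and a highest of 9.20, so both groups lay wholly below CON. The difference was -0.25 ± 0.065 in RVF+ (adjusted p = 0.00663). In RVF it was -0.20 ± 0.069, which missed the threshold (adjusted p = 0.0506). Under 7 of 9 alternative settings Psmb5 passed in RVF, with adjusted p from 0.0100 to 0.0541 over the 9.

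Psmb6, the caspase-like subunit whose place Psmb9 takes, had 8.53, 8.65, 8.63, 8.69 and 8.89 in RVF+ and 8.80, 8.54, 8.67 and 8.75 in RVF, with 8.85, 8.94 and 9.06 in CON. Only RVF+ 12 reached into the CON range. The difference was -0.26 ± 0.072 in RVF+ (adjusted p = 0.0127) and -0.24 ± 0.077 in RVF (adjusted p = 0.037). A second, dimmer probe set of Psmb6 differed by -0.13 and -0.15, and with the mean of both probe sets the RVF call was lost, as it was without any one of CON 1, 3, 5 or 6 or RVF 14, 15 or 16.

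Psmb7, the trypsin-like subunit whose place Psmb10 takes, had 10.00, 10.15, 10.10, 10.15 and 10.16 in RVF+ and 10.27, 10.02, 10.20 and 10.11 in RVF, with 10.24, 10.35 and 10.41 in CON. All RVF+ arrays lay below CON, and RVF 13 lay within the CON range. The difference was -0.23 ± 0.062 in RVF+ (adjusted p = 0.00987) and -0.19 ± 0.066 in RVF (adjusted p = 0.057). Under 5 of the 9 settings Psmb7 passed in RVF, with adjusted p from 0.0183 to 0.0616. Without RVF+ 8 the RVF+ differences of Psmb5, Psmb6 and Psmb7 were -0.21, -0.22 and -0.20, each still called.

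Psmb5 and Psmb8 windows are shown because these genes form the first catalytic pair compared next, and because antioxidant and interferon response elements are known to act on proteasome genes. Psmb5 is at chr15:32047330-32047629 on the minus strand and Psmb8 at chr20:4656982-4657281 on the minus strand in GRCr8. Capitals mark TGACNNNGC, the core of the antioxidant response element that NRF factors bind, or GAAANNGAA as above, on either strand.
Psmb5: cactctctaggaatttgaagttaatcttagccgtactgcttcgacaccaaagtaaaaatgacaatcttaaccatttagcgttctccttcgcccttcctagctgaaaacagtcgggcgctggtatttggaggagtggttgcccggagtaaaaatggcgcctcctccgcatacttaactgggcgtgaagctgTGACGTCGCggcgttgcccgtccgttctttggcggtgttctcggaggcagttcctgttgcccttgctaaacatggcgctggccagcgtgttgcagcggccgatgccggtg
Psmb8: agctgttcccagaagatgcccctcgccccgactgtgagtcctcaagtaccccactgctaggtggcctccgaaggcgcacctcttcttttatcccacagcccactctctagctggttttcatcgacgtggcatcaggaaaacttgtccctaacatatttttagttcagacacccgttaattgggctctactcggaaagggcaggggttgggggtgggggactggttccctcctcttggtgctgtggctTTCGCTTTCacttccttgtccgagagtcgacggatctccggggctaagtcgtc
The Psmb5 window holds TGACNNNGC at bases 191 to 199, and the Psmb8 window holds GAAANNGAA on the opposite strand at bases 248 to 256. TGACNNNGC occurs in 7 of 39 member windows (17.9%: Psmb2, Psmb5, Psmb6, Psmd1, Psmd3, Psmd9 and Psme4), against 12.1% of all windows. CCAAT occurs in 20 member windows (51.3%) against 37.5%, and the gamma-activated site TTCNNNGAA in 4 (10.3%) against 8.87%. The Psmb2 matches to TGACNNNGC and CCAAT overlap each other. Psmb8 lies between Tap2 and Tap1 on chromosome 20, with Psmb9 on the other side of Tap1, and Psmb11 follows Psmb5 on chromosome 15.

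The difference between each inducible subunit and the constitutive subunit it replaces was then formed within each array, which cancels any scaling of the whole array. Its level depends on the pair of probe sets and has no meaning of its own, but its change between groups does. Psmb8 minus Psmb5 was -1.84, -3.17, -3.56, -3.34 and -3.38 in RVF+ and -3.51, -3.54, -3.18 and -3.12 in RVF, and -3.97, -3.78 and -3.54 as lowest, median and highest in CON. In 4 of 5 RVF+ and 3 of 4 RVF arrays it was above all CON arrays. The change was 0.65 ± 0.32 (SE) in RVF+ and 0.38 ± 0.13 in RVF (2-sided exact permutation tests, adjusted p = 0.0164 each, over 9 tests).

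Psmb9 minus Psmb6 was -0.070, -0.55, -1.01, -0.88 and -0.47 in RVF+ and -0.75, -0.54, -0.40 and -0.56 in RVF, and -1.37, -1.05 and -0.76 in CON. All 4 RVF arrays and 3 of 5 RVF+ arrays were above CON. The change was 0.43 ± 0.18 in RVF+ (exact permutation test, adjusted p = 0.0341) and 0.47 ± 0.11 in RVF (adjusted p = 0.0164). Psmb10 minus Psmb7 was -2.46, -3.58, -3.72, -3.84 and -3.62 in RVF+ and -3.67, -3.62, -3.62 and -3.35 in RVF, and -4.15, -3.84 and -3.74 in CON. All 4 RVF arrays and 4 of 5 RVF+ arrays were above CON. The change was 0.46 ± 0.26 in RVF+ and 0.34 ± 0.094 in RVF (exact permutation tests, adjusted p = 0.0164 each).

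All 3 within-array differences were thus higher in RVF+ and in RVF than in CON. How often other pairs of genes would be called or lie above CON was not computed, and the adjustment covered only these 9 tests. In each pair the mean of the constitutive gene was lower and that of the inducible gene higher, but no inducible gene of a pair passed on its own. Without RVF+ 8, Psmb8, Psmb9 and Psmb10 differed by only 0.14, 0.079 and 0.015 in RVF+. Their partners Psmb5, Psmb6 and Psmb7 then differed by -0.21, -0.22 and -0.20. Without RVF+ 8 the RVF+ changes were 0.35 for Psmb8 minus Psmb5 (exact permutation test, adjusted p = 0.0341), 0.30 for Psmb9 minus Psmb6 (adjusted p = 0.109) and 0.22 for Psmb10 minus Psmb7 (adjusted p = 0.0873), so that the call was kept only for the first pair. The call of Psmb9 minus Psmb6 in RVF+ was lost in 9 of the 16 fits that left out 1 array, that of Psmb8 minus Psmb5 in RVF in 5 and that of Psmb10 minus Psmb7 in RVF without RVF 16. RVF+ and RVF differed by 0.28, -0.035 and 0.12 in the 3 pairs (adjusted p = 0.918, 0.944 and 0.944). The smallest p these tests allow is 0.00126 for RVF+ against CON, 0.00303 for RVF against CON and 0.00794 for RVF+ against RVF.

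**Figure D3:**
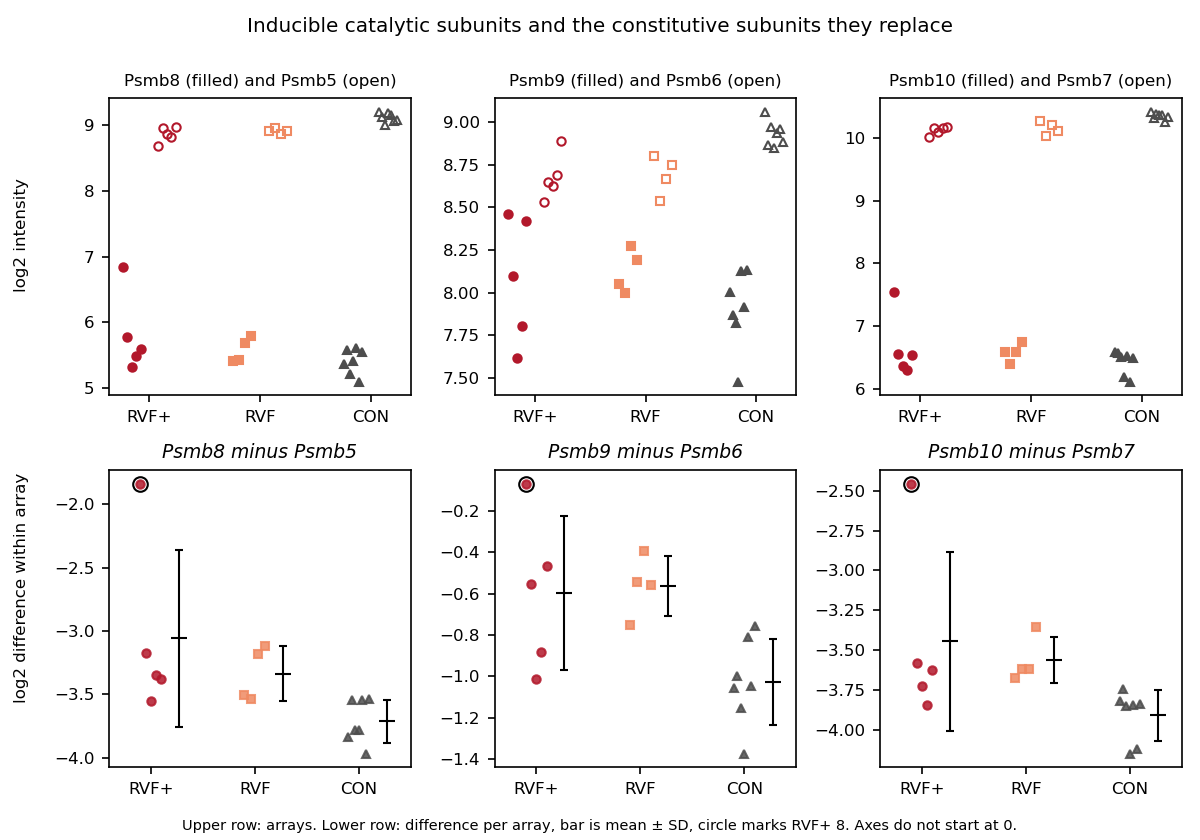
Psmb8, Psmb9 and Psmb10 with their constitutive partners Psmb5, Psmb6 and Psmb7 by array, and the within-array difference of each pair in log2 units with its mean ± SD, with RVF+, RVF and CON from left to right. The circled RVF+ 8 points of Psmb8 minus Psmb5 (-1.84) and Psmb10 minus Psmb7 (-2.46) lie above all others, and most of the remaining RVF+ and RVF points lie above the CON points.

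Of the 7 alpha subunits of the core, which gate entry to the barrel, 1 fell and none rose in each comparison, where 13.6% of all genes fell in RVF+ and 8.29% in RVF. Psma1 had 9.48, 9.23, 9.21, 9.16 and 9.31 in RVF+ and 9.28, 9.16, 9.25 and 9.26 in RVF, with 9.41, 9.48 and 9.68 in CON. RVF+ 8 alone among these arrays lay in the CON range. The difference was -0.23 ± 0.071 in RVF+ (adjusted p = 0.0193) and -0.27 ± 0.076 in RVF (adjusted p = 0.0191). It was -0.29 in RVF+ without RVF+ 8. The RVF+ call was lost without RVF+ 11, and the RVF call without RVF 14.

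Among alpha subunits in RVF+ against CON, the smallest difference was that of Psma5, with 7.07, 6.60, 6.50, 6.70 and 6.86 in RVF+ and 6.52, 6.71 and 6.94 in CON. The ranges overlapped, and the difference was 0.0089 ± 0.11. Psma7 had all 4 RVF arrays, at 7.43, 7.54, 7.48 and 7.54, below the CON range of 7.61 to 7.78, with a difference of -0.16 ± 0.066 (adjusted p = 0.0966). Psma8, which is known from testis, had values of 2.93 to 3.38 in the 16 arrays.

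Of the 8 beta subunits, 3 fell in RVF+ (Psmb5, Psmb6 and Psmb7), where 13.6% of all genes fell, and 1 in RVF (Psmb6), where 8.29% fell. The other beta subunits, Psmb1, Psmb2, Psmb3, Psmb4 and Psmb11, differed by -0.11 to 0.078 in RVF+ and none passed. Psmb3 differed least, with 8.89, 8.63, 8.51, 8.55 and 8.52 in RVF+ and 8.38, 8.60 and 8.75 in CON, or 0.016 ± 0.085. Psmb11, known as the beta subunit of thymic cortex, had values of 2.90 to 3.44 in the 16 arrays. Over the core as a whole the median difference was -0.088 in RVF+ (-0.11 without RVF+ 8) and -0.12 in RVF.

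Psmc5, an ATPase of the base, fell in both groups. It had 6.78, 7.00, 6.88, 7.05 and 7.07 in RVF+ and 7.10, 6.83, 7.09 and 7.04 in RVF, with 7.28, 7.45 and 7.58 in CON. All RVF+ and RVF arrays lay below all CON arrays. The difference was -0.49 ± 0.074 in RVF+, or 1.41-fold lower (adjusted p = 0.000108), and -0.43 ± 0.079 in RVF, or 1.35-fold lower (adjusted p = 0.000991). Without RVF+ 8 it was -0.45. Of the other ATPases, Psmc1, Psmc2, Psmc4 and Psmc6, none passed. Psmc2 differed by -0.18 ± 0.084 in RVF+ (adjusted p = 0.132), and Psmc1, the smallest, by 0.040 ± 0.071 from RVF+ values of 8.34, 8.16, 8.24, 8.32 and 8.42 and CON values of 8.14 to 8.42.

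Psmd8, a lid subunit, rose in both groups and was the only member to do so. It had 8.58, 8.29, 8.55, 8.59 and 8.35 in RVF+ and 8.47, 8.27, 8.21 and 8.19 in RVF, with 7.86, 7.99 and 8.16 in CON. No RVF+ or RVF array overlapped with CON. The difference was 0.45 ± 0.080 in RVF+, or 1.36-fold higher (adjusted p = 0.000494), and 0.26 ± 0.086 in RVF, or 1.20-fold higher (adjusted p = 0.0454). The first was 0.42 without RVF+ 8. The RVF call was lost when arrays were centred on their medians and in 9 of the 16 fits that left out 1 array (CON 2, 4, 5 or 7, RVF+ 10, or any RVF array).

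Psmd3, another lid subunit, had 8.04, 7.93, 7.96, 7.79 and 7.83 in RVF+ and 8.04, 8.14, 8.10 and 8.00 in RVF, with 8.05, 8.15 and 8.23 in CON. Only the RVF+ arrays lay wholly below CON, at -0.24 ± 0.062 (adjusted p = 0.00745), while RVF differed by -0.080 ± 0.067 (adjusted p = 0.469). The RVF+ and RVF values differed by -0.16 ± 0.071, which did not pass (adjusted p = 0.651). Psmd1, the large scaffold of the base, had 9.33, 9.36, 9.24, 9.50 and 9.60 in RVF+ and 9.50, 9.60 and 9.69 in CON. Its difference of -0.20 ± 0.071 had the largest adjusted p of the RVF+ calls (0.0442). The call was lost with only the compared groups in the fit (adjusted p = 0.0660) and with array weights (adjusted p = 0.0597), and in 11 of 16 fits that left out 1 array (CON 1, 3, 4, 5, 6 or 7, RVF+ 8, 9 or 10, or RVF 14 or 15), including that without RVF+ 8 (-0.18, adjusted p = 0.0913). Its RVF difference of -0.094 ± 0.076 did not pass.

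The other 11 non-ATPase genes did not pass in either comparison. They include Psmd14, the deubiquitinase of the lid, at -0.017 in RVF+, and the ubiquitin receptor Psmd4, which differed least at -0.0055 ± 0.064 from RVF+ values of 6.88, 6.80, 6.76, 6.61 and 6.82 and CON values of 6.72 to 6.86. Psmd2, the second scaffold of the base, differed by -0.22 ± 0.092 in RVF+ (adjusted p = 0.0924) and Psmd12 by -0.19 ± 0.085 (adjusted p = 0.106). All 4 RVF arrays of Psmd6 lay below CON, at -0.19 ± 0.093 (adjusted p = 0.197). Psmd5 and Psmd10, which are known as chaperones of regulatory particle assembly and not as subunits of the finished particle, differed by 0.15 ± 0.10 and 0.090 ± 0.13.

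The 3 other regulators did not pass in any comparison. Psmf1, a known inhibitor of the core in vitro, had 7.42, 7.51, 7.50, 7.61 and 7.42 in RVF+ and 7.28, 7.58 and 7.80 in CON, a difference of -0.090 ± 0.081. Psme3, the nuclear PA28 gamma, had 8.75, 9.00, 8.79, 9.08 and 9.27 in RVF+ and 8.78, 9.02 and 9.16 in CON, or -0.023 ± 0.091. Psme4, the activator PA200, differed by -0.088 ± 0.067. Their RVF differences were -0.028 to 0.11. Over all 22 regulatory genes the median difference was -0.089 in RVF+ (-0.076 without RVF+ 8) and -0.012 in RVF.

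In the count of members whose groups did not overlap, 5 lay wholly below CON in RVF+ (Psme1, Psmc5, Psmb5, Psmb7 and Psmd3) and 1 wholly above (Psmd8), where 7.63% of all genes were below and 6.96% above. In RVF, 8 lay wholly below (Psme1, Psmc5, Psme1-ps1, Psma1, Psmb6, Psmb5, Psma7 and Psmd6) and 1 above (Psmd8), where 9% of all genes were below and 9.83% above. By array, the median deviation of the 48 members from their CON means was -0.00098, -0.095, -0.18, -0.096 and 0.031 in RVF+ 8 to 12 and 0.013, -0.11, -0.072 and -0.082 in RVF 13 to 16. It lay from -0.040 to 0.057 in the CON arrays. For the 15 core genes it was 0.058, -0.077, -0.17, -0.091 and -0.081 in RVF+ and -0.030, -0.16, -0.12 and -0.11 in RVF, against -0.040 to 0.098 in CON. The inducible class varied most between RVF+ arrays, with a median of 0.56 in RVF+ 8 and -0.29 in RVF+ 10.

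**Figure D4:**
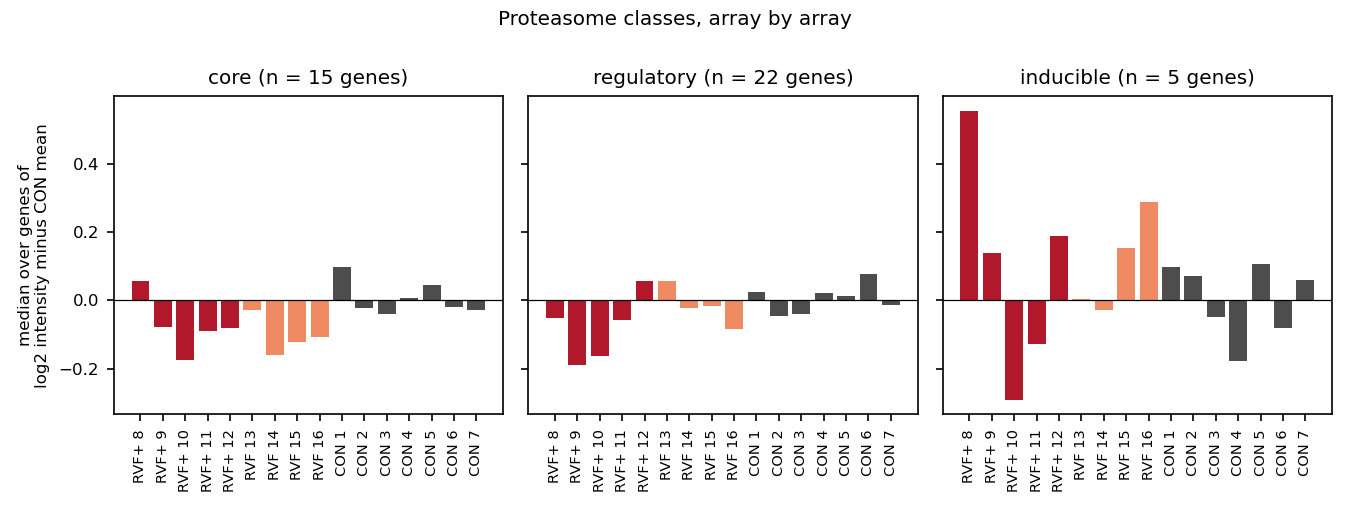
Median deviation from the CON means (log2 units) of the core, regulatory and inducible members in each array, with RVF+, RVF and CON from left to right. The core medians lie below 0 in 4 of 5 RVF+ arrays and in all 4 RVF arrays. Those of CON arrays lie on both sides of 0, from -0.040 to 0.098, and RVF 13 (-0.030) and RVF+ 8 (0.058) lie within that range. The inducible median of RVF+ 8 (0.56) is the highest of all.

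Of the 6 other matched symbols, Psme1-ps1, a pseudogene of Psme1, was lower in both groups. It had 5.33, 5.27, 5.01, 5.47 and 5.16 in RVF+ and 4.93, 5.02, 5.27 and 5.35 in RVF, with 5.38, 5.54 and 5.67 in CON. The difference was -0.29 ± 0.090 in RVF+ (adjusted p = 0.0224) and -0.40 ± 0.10 in RVF (adjusted p = 0.00855). Its probe set may also bind Psme1 transcripts, so its value is uncertain. The RVF+ call was lost without RVF+ 10 or RVF+ 12. Psmb3l2 and Psmb3l3, copies of Psmb3, and Psma6-ps1 carry the same doubt and did not pass. Psmc3ip, a recombination factor, and Psme3ip1, an interactor of Psme3, did not pass either.

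RVF+ and RVF did not differ at the threshold in any proteasome gene, with 0 of 48 higher and 0 lower, and 0% of all genes higher and 0% lower (limma). At an unadjusted p under 0.05 there were 2 members and 1242 of all genes (7.2%). Psmd9, a chaperone of regulatory particle assembly, had the smallest p. It had 7.32, 7.37, 7.38, 7.35 and 7.41 in RVF+ and 7.47, 8.03, 7.79 and 7.49 in RVF, so the groups did not overlap, as in 1.15% of all genes in that direction. The difference was -0.33 ± 0.11 (adjusted p = 0.529), with a 95% interval of -0.57 to -0.093. The CON arrays, at 7.26 to 7.70, overlapped with both groups. Psmd8 differed by 0.19 ± 0.092 (adjusted p = 0.704), with 3 of 5 RVF+ arrays above all RVF arrays.

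Genes around the proteasome were listed for comparison. Of 15 measured assembly factors and proteasome-associated proteins, 2 fell and none rose in RVF+ (13.6% of all genes fell), and 1 fell in RVF (8.29%). Ecpas, a scaffold that binds the proteasome, fell by 0.44 in RVF+ (mean 8.44 against 8.89 in CON, adjusted p = 0.000849) and by 0.33 in RVF (adjusted p = 0.0189). Txnl1, a thioredoxin-like protein of the regulatory particle, fell by 0.22 in RVF+ (adjusted p = 0.0144) and differed by -0.19 in RVF (adjusted p = 0.061). Zfand2a and Zfand5, zinc-finger proteins that bind the proteasome, differed by 0.37 and -0.21 in RVF+ without passing. Without RVF+ 8, the same number fell in RVF+ (12% of all genes fell). In RVF 1 then rose (Zfand2a) and 3 fell (Ecpas, Txnl1 and Zfand5), where 13.4% of all genes rose and 11.2% fell.

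Of 11 measured ubiquitin and shuttle genes, 2 fell in RVF+ (13.6% of all genes fell) and 2 in RVF (8.29%), and none rose. Ddi2, the protease that activates the proteasome gene regulator Nfe2l1, fell by 0.23 and 0.27 (adjusted p = 0.0233 and 0.0193). Vcp, the unfoldase that feeds substrates to the proteasome, fell by 0.19 in RVF+ (adjusted p = 0.0469). The shuttle factor Ubqln2 differed by -0.26 in RVF+ (adjusted p = 0.0518) and fell by 0.30 in RVF (adjusted p = 0.0494), and Ufd1, a Vcp cofactor, differed by -0.19 in RVF+ (adjusted p = 0.0788). Without RVF+ 8, 1 of the 11 fell in RVF+ (Ddi2), where 12% of all genes fell.

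Of 9 regulators of proteasome genes, 2 rose and 1 fell in RVF+, where 14.1% of all genes rose and 13.6% fell. In RVF 1 rose and 1 fell, where 8.86% of all genes rose and 8.29% fell. Nfyc, a subunit of the factor that binds CCAAT, fell by 0.44 and 0.39 (adjusted p = 0.000112 and 0.000875). Stat3 rose by 0.42 and 0.37 (adjusted p = 0.000163 and 0.00141). Nfe2l2, which encodes NRF2, rose by 0.29 in RVF+ (adjusted p = 0.0349) and differed by 0.17 in RVF, and the RVF+ call was lost without RVF+ 8. Ngly1, which processes Nfe2l1, differed by -0.11 in RVF+.

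Of 17 genes of antigen presentation and interferon response, 5 rose and none fell in each of RVF+ and RVF. Of all genes, 14.1% rose in RVF+ and 8.86% in RVF. Without RVF+ 8, 4 of the 17 rose in RVF+ and 8 in RVF, where 12.9% and 13.4% of all genes rose. Irf8, a transcription factor of the interferon response, rose by 0.70 in RVF+ (adjusted p = 0.00384) and differed by 0.51 in RVF (adjusted p = 0.0544). Oas1a rose by 0.57 in RVF+ and 0.62 in RVF (adjusted p = 0.00466 and 0.00666). The antiviral gene Mx1 rose by 1.25 and 1.29 (adjusted p = 0.0186 and 0.0351), and its RVF+ call was lost without RVF+ 8. The ubiquitin-like modifier Isg15 rose by 0.60 and 0.91 (limma, adjusted p = 0.0194 and 0.00341). B2m rose by 0.17 in RVF+ and differed by 0.17 in RVF (limma, adjusted p = 0.0218 and 0.0535). Gbp2 and Mx2 rose by 0.47 and 1.06 in RVF (limma, adjusted p = 0.0363 and 0.0387). In RVF+ they differed by 0.28 and 0.83 without passing. The remaining genes of the list did not pass in either group. Tap1, Tap2 and Nlrc5 were among these, at 0.050, 0.0095 and 0.074 in RVF+ and 0.18, 0.098 and 0.089 in RVF. Irf1 differed by -0.12 in RVF+ and 0.027 in RVF, Erap1 by -0.12 and -0.17, and Ifit1 by 0.59 and -1.06.

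Cell type markers moved with the groups as well. Of 8 macrophage markers, 7 rose in RVF+ and 5 in RVF, where 14.1% and 8.86% of all genes rose. Among them were C1qa at 1.27 and 1.04, C1qb at 1.05 and 0.68, Mrc1 at 1.48 and 0.83 and Csf1r at 1.03 and 0.77. Without RVF+ 8, 7 rose in each group, where 12.9% of all genes rose in RVF+ and 13.4% in RVF. Of 8 cardiomyocyte markers, 4 fell in RVF+ and none passed in RVF, where 13.6% and 8.29% of all genes fell. Without RVF+ 8, 4 fell in RVF+ and 3 in RVF (Myh6, Pln and Tnni3), where 12% and 11.2% of all genes fell. Myh6 fell by 1.34 in RVF+ (adjusted p = 0.00125), Ryr2 and Tnni3 by 0.47 each, and Pln by 0.27. Their mean level ranged from 10.98 to 11.76 in RVF+ and from 11.68 to 11.81 in RVF, against 11.95 to 12.01 in CON, with no overlap between either group and CON.

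Of 9 lymphocyte and natural killer cell markers, 2 rose (Cd4 by 0.86 in RVF+ and 0.73 in RVF, Cd79b by 0.39 and 0.52) and 1 fell (Klrd1 by 0.89 and 0.84). Of all genes, 14.1% rose and 13.6% fell in RVF+, and 8.86% rose and 8.29% fell in RVF. Cd3g differed by 0.54 in RVF+ (limma, adjusted p = 0.054). Without RVF+ 8, 4 rose in RVF (Cd3g, Cd4, Cd79b and Ptprc), where 13.4% of all genes rose. Of 5 fibroblast markers, Col1a1 rose by 0.79 in both groups and Lum by 0.48 in RVF+, while Tcf21 and Dcn differed by -0.083 and 0.042 in RVF+. None of 4 measured endothelial markers passed in either group, and Tek, Cdh5, Emcn and Tie1 differed by 0.23, 0.058, 0.023 and 0.010 in RVF+. Without RVF+ 8, Tek was called higher in RVF+. The part of cell composition in the proteasome results was not tested.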

How the data were processed

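Expression was measured in total RNA of rat right ventricular wall on 16 Affymetrix arrays, from 500 ng of RNA per sample per the labels' protocols. The deposited values are array intensities on a linear scale, with array medians of 27.1 to 29.3 and no value below 2.20, and RMA (robust multi-array average) is named in the submitters' processing notes; which build and annotation version the array follows is not given in the sources used here. RMA fits probes across arrays and evens out their distributions, so a shift of all genes together would not be seen. The authors' intensities were used as deposited and converted to log2 here. Of 29214 probe sets, 18644 had 1 symbol, 962 several and 9608 were not named, in the platform annotation; the probe set with the highest mean stood for each of 17245 genes, and no gene was removed for low values.

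Groups were taken from the condition labels, which give no batch, date or pairing. Group differences were tested with limma 3.58.1 in R 4.3.3 (lmFit and eBayes, no trend, not robust, 13 residual and 4.45 prior degrees of freedom), with Benjamini-Hochberg adjustment over all genes and a threshold of 0.05; intervals are 95% and unadjusted. Catalytic pairs were tested with 2-sided exact permutation tests of the mean, adjusted over 9 tests (3 pairs, 3 comparisons); groups of unequal spread can affect such tests. The limma fit was tested on simulated data with normal errors and no outlying array, and the permutation tests were not. Promoter windows and gene neighbours came from RefSeq (GRCr8). The members, the 9 lists of other genes (86 of 96 measured) and the tests were chosen with earlier results of these data known. Named were the inducible genes and their partners, the 8 called members of smallest p in each direction, the largest and smallest difference of each class, outlying values, and 4 genes of smallest p per list; other genes were named after their values were seen. The 9 alternative settings and the 16 fits that leave out 1 array were planned, and the results without RVF+ 8 given beside the main ones were chosen after seeing the data. The number of arrays limits the precision.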

Additional observations from a re-analysis of the deposited data

Results flagged for a closer look

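Of 153 groups of values examined (each member and each catalytic pair in each group of arrays), 7 held a value that lay far from the others by Dixon's criterion, where chance gives about 1 in 20 groups. RVF+ 8 held 3 of them. Psmb10 was 7.55 in RVF+ 8, against 6.30 to 6.57 in the other RVF+ arrays. Psmb8 minus Psmb5 was -1.84 in RVF+ 8, against -3.56 to -3.17, and Psmb10 minus Psmb7 was -2.46, against -3.84 to -3.58. The other 4 were single genes in different arrays. Psmd6 was 9.32 in RVF+ 12, against 8.81 to 8.85 in the other RVF+ arrays. Psmd10 was 5.95 in RVF 13, against 5.50 to 5.53 in the other RVF arrays. Psmb4 was 9.10 in CON 1, against 8.78 to 8.91 in the other CON arrays, and Psma2 was 7.02 in CON 3, against 7.26 to 7.37.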

How the results depend on the processing

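Over 9 alternative settings the number of members called was 9 to 14 in RVF+ against CON (10 as reported), 6 to 9 in RVF against CON (6 as reported) and 0 in RVF+ against RVF. Median centring gave the 14, and for RVF it gave 8 lower and none higher; it moved the median of all genes to -0.060 and -0.039 and their calls in RVF+ to 1998 higher and 3004 lower, against 2423 and 2348. Psme1 and Psmc5 kept their calls in both comparisons under all 9 settings and all 16 fits without 1 array, as did Psmb5, Psmb6, Psmb7, Psmd3 and Psmd8 in RVF+ against CON. Leaving out 1 array gave 8 to 11 calls in RVF+, 3 (without RVF 14) to 8 in RVF, and 0 in RVF+ against RVF. No paired analysis was possible because the groups share no replicate numbers.

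Leaving out 1 array moved the RVF+ changes to 0.35 to 0.78 for Psmb8 minus Psmb5, 0.30 to 0.53 for Psmb9 minus Psmb6 and 0.22 to 0.56 for Psmb10 minus Psmb7, and the RVF changes to 0.31 to 0.45, 0.41 to 0.53 and 0.27 to 0.38. The call was lost for Psmb9 minus Psmb6 in RVF+ in 9 of these 16 fits (without CON 1, 2, 3, 4 or 6, RVF+ 8, 9 or 12, or RVF 16) and with the mean of probe sets (0.37, adjusted p = 0.0739). It was lost for Psmb8 minus Psmb5 in RVF in 5 (without CON 1, 3 or 4, or RVF 15 or 16), and for Psmb10 minus Psmb7 in RVF+ without RVF+ 8 and in RVF without RVF 16 (0.27, adjusted p = 0.0625). Between RVF+ and RVF the ranges were -0.027 to 0.40 for Psmb8 minus Psmb5, -0.17 to 0.068 for Psmb9 minus Psmb6 and -0.13 to 0.22 for Psmb10 minus Psmb7. Psmb9 minus Psmb6 turned positive without RVF+ 10 (0.068), RVF+ 11 (0.036) or RVF 15 (0.020), and the other pairs turned negative without RVF+ 8.

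Among the proteasome genes given with a value of their own, signs turned in 9 with no call, in RVF+ against CON; those given by range, and the genes of other lists, were not recomputed. Psma5 became -0.020 with quantile normalization, -0.040 with median centring, -0.082 with array weights, and -0.072 to 0.070 without 1 array. Psmb3 became -0.033 with median centring, -0.046 with array weights, and -0.052 to 0.044 without 1 array. Psmc1 became -0.0083 with median centring, and Psme3 0.014 with array weights. Without 1 array Psmd4 ranged from -0.032 to 0.036, Psme3 from -0.096 to 0.033 Psme2 from -0.23 to 0.039 (positive without RVF+ 10), Psmb4 from -0.13 to 0.055, Psmd10 from -0.037 (without RVF+ 12) to 0.18 and Psmd14 from -0.10 to 0.040. The cause of these changes was not tested. Psma8, Psmb11 and Psma6-ps1 had means among the lowest of all genes, where differences are hard to see.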
